A study of Drosophila melanogaster with 22 samples.

Results

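Circulating blood of Drosophila melanogaster larvae was examined 48 h after infestation by a parasitoid wasp. The samples were those whose labels name blood taken 120 h after egg laying. They are 3 infested nanopore libraries (replicates 1, 2 and 3) and 2 normal nanopore libraries (replicates 2 and 3). With 1 Illumina short-read library of each condition they make 7 of the 22 samples of the series. Both groups were wild-type Oregon R larvae of the same age, 120 h after egg laying, and differed by infestation 48 h earlier. Hemocytes, the blood cells of the larva, were released by vortexing 100 to 150 larvae per condition with glass beads, so each library holds RNA of cells pooled from many animals. The labels do not say that replicates came from separate cultures, so the p-values measure a spread between libraries that may be technical. That spread was estimated over 16 nanopore libraries, lymph gland and blood at 96 h among them.

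Larval blood holds 3 classes of mature hemocyte. Plasmatocytes engulf particles and secrete extracellular matrix, crystal cells carry the prophenoloxidases that start melanization, and lamellocytes are large flat cells that are rare in healthy larvae and appear when a wasp egg is laid in the body cavity. Lamellocytes spread over the egg, adhere to one another through integrins and, with melanin, enclose it in a capsule.

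The nanopore libraries held 723489 to 2079764 reads counted to genes, and 8610 to 10670 genes had a read in each. Levels are given as CPM, read counts scaled to a common library size, here with factors from the trimmed mean of M-values (TMM). The limit of detection, taken as 3 reads, corresponded to 1.44 to 4.15 CPM. Infested replicate 1 stood apart from the other infested libraries: its root mean square log2 difference was 0.789 from replicate 2 and 0.875 from replicate 3, against 0.546 between replicates 2 and 3 and 0.675 between the normal libraries. The chi-square per degree of freedom, which sets differences against counting error, was 20.4 and 17.1 for replicate 1 against replicates 2 and 3. It was 2.67 between infested replicates 2 and 3 and 3.18 between normal replicates 2 and 3. Whether replicates 2 and 3 of a group are technical repeats is not given in the labels. Cytosolic ribosomal protein transcripts summed to 156800, 319000 and 301400 CPM in infested replicates 1, 2 and 3 and to 385900 and 364600 CPM in the normal libraries. Salivary gland genes summed to 767, 167 and 262 CPM in the infested and 343 and 444 CPM in the normal libraries. Fat body genes summed to 4533, 1093 and 1150 CPM in the infested and 4192 and 4823 CPM in the normal libraries. Replicate 1 was the highest infested library for both. Hemocyte genes were present in all 5 libraries. Hemese (He), a surface protein of hemocytes, was at 3097 and 4879 CPM in the normal and 2635, 3855 and 5720 CPM in the infested libraries. The blood cell GATA factor serpent (srp) was at 26.4 and 39.4 CPM in normal and 30.6, 25.2 and 30 CPM in infested blood. Neither passed the test (edgeR adjusted p = 0.979 and 0.838).

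Of 7076 genes tested, 799 were higher and 576 lower in infested blood at an edgeR adjusted p under 0.05. Together they were 19.4% of the genes tested (11.3% higher and 8.14% lower). Every count of a gene list below is to be set against these shares. Genes that rose took 5.72% of the reads of normal blood and 22.9% of those of infested blood, while genes that fell went from 18.9 to 8.56%. Among the rises 407 were at least 4-fold, and among the falls 114. The ranges of the groups did not overlap for 49.9% of all genes tested. With library totals in place of TMM factors, which moved the median log2 change of all genes from -0.03 to 0.17, the split was 906 higher and 312 lower. Of the 166 called genes that the naming rule picked, 101 kept their call without any 1 of the 5 libraries, and 77 also kept it with replicates 2 and 3 of each group summed to 1 library. Genes named below as rising or falling kept their call under both unless a p-value or count says otherwise. List members named outside the rule, such as LamC, mdu, Itgbn, rhea and Zyx, were chosen after their values were seen. Because the samples are bulk RNA, fewer cells of a type and less RNA per cell cannot be told apart.

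**Figure D1:**
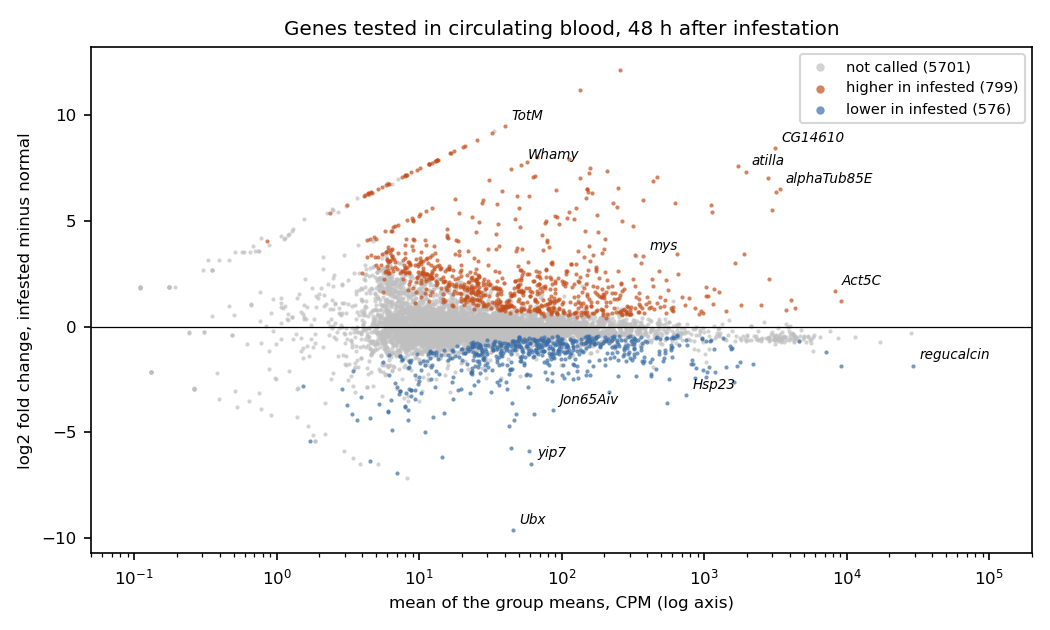
Log2 fold change (infested minus normal) against the mean level in CPM (log axis) for the genes tested in circulating blood at 120 h, with 799 called higher, 576 called lower and 5701 not called. The called rises reach further from 0 than the called falls, and the diagonal lines of points are genes with no read in 1 of the groups.

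Lamellocyte genes rose together. Of 14 members tested, 13 rose and none fell, with a median log2 change of 5.85 against -0.03 over all genes, and the same counts were found without infested replicate 1. Their summed level was 609 and 608 CPM in the normal libraries and 19160, 27090 and 25400 CPM in the infested ones. The short-read pair gave the same direction for all 13. The list was taken from markers known for this cell class and was chosen with earlier results of these data known.

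The surface protein atilla (FBgn0032422, chromosome 2L, 12175451 to 12177886 on BDGP6.54), the antigen by which lamellocytes are usually stained, stood at 26.4 and 19.7 CPM in normal replicates 2 and 3 and at 2254, 4900 and 4498 CPM in infested replicates 1, 2 and 3 (log2 fold change 7.34, SE 0.60, edgeR adjusted p = 1.10e-06). Prophenoloxidase 3 (PPO3, FBgn0261363, chromosome 2R, 23064769 to 23067183), the lamellocyte form of the melanizing enzyme, was at 6.34 and 7.58 CPM in normal and 694, 1069 and 1005 CPM in infested blood (log2 fold change 7.08, SE 0.49, edgeR adjusted p = 1.09e-07). The groups were far apart for both genes, and infested replicate 1 was the lowest of the infested libraries. The sugar transporter gene CG1208 went from 20.1 and 13.7 to 4105, 3110 and 3090 CPM (log2 fold change 7.59, SE 0.36, edgeR adjusted p = 9.25e-09), and here infested replicate 1 was the highest. Tret1-1, a trehalose transporter that brings the blood sugar into cells, went from 5.28 and 4.55 to 239, 206 and 220 CPM (log2 fold change 5.42, SE 0.28, edgeR adjusted p = 1.08e-08). The remaining members that rose were LamC, mdu, Drip and CG15347, with log2 changes of 3.02, 6.16, 6.36 and 6.36, together with integrin and cytoskeletal genes described below. The kinase misshapen (msn), whose enhancer drives a common lamellocyte reporter, was the member that did not pass, at 22.7 and 31.8 CPM in normal and 39, 47.2 and 58.8 CPM in infested blood (edgeR adjusted p = 0.15).

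**Figure D2:**
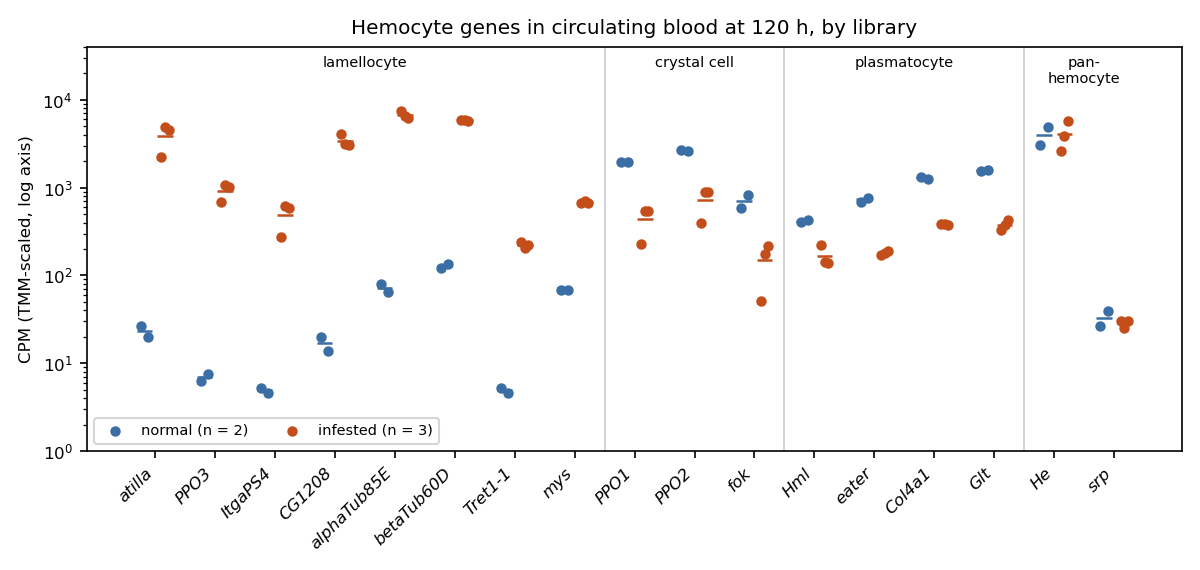
Level in CPM (log axis) of 17 genes in each library, set out by hemocyte class, with normal libraries in blue, infested libraries in orange and a line at each group mean. The tubulin gene alphaTub85E is drawn in the lamellocyte block but is not a member of the lamellocyte list. The 8 genes of that block lie above the normal libraries in every infested library. The crystal cell and plasmatocyte genes lie below them, and He and srp overlap.

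The adhesion machinery rose with these markers. The lamellocyte list itself holds mys, ItgaPS4, ItgaPS5, betaTub60D and cher, so it and the integrin and cytoskeletal lists below are not independent. Of 17 integrin and adhesion adaptor genes tested, 11 rose, with a median log2 change of 1.92, and 10 rose with replicates 2 and 3 summed. The focal adhesion protein gene Zyx was called lower (log2 fold change -0.67, edgeR adjusted p = 0.0469), but without any 1 library its adjusted p was 0.0665 to 0.195. The short reads had the same sign for all 12. The beta integrin myospheroid (mys, FBgn0004657, chromosome X, 8061645 to 8070237) was at 67.6 and 68.2 CPM in normal and 674, 698 and 676 CPM in infested blood (log2 fold change 3.33, SE 0.19, edgeR adjusted p = 2.49e-08), with little spread in either group. Its alpha partner ItgaPS4 was at 5.28 and 4.55 CPM in normal and 271, 614 and 587 CPM in infested blood (log2 fold change 6.57, SE 0.45, edgeR adjusted p = 9.61e-07). Another alpha chain, ItgaPS5, was at 20.6 and 19.7 CPM in normal and 220, 255 and 243 CPM in infested blood (log2 fold change 3.56, SE 0.25, edgeR adjusted p = 1.50e-07). The second beta integrin of the fly, Itgbn, rose as well (log2 fold change 5.24). Proteins that couple integrins to actin moved in the same direction. The kindlin Fit1 went from 21.6 and 21.2 to 253, 439 and 454 CPM (log2 fold change 4.15, SE 0.31, edgeR adjusted p = 2.70e-07). Talin (rhea), vinculin (Vinc), integrin-linked kinase (Ilk) and parvin rose with log2 changes of 2.98, 2.96, 2.01 and 1.47. CAP, an adaptor that binds vinculin, was at 12.2 and 12.1 CPM in normal and 287, 274 and 272 CPM in infested blood (log2 fold change 4.50, SE 0.29, edgeR adjusted p = 5.54e-08).

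Tubulin genes rose by different amounts. The alpha tubulin alphaTub85E (FBgn0003886, chromosome 3R, 9731221 to 9733250) was at 79.2 and 65.2 CPM in normal and 7412, 6535 and 6134 CPM in infested blood (log2 fold change 6.52, SE 0.32, edgeR adjusted p = 9.25e-09). The beta tubulin betaTub60D was at 121 and 133 CPM in normal and 5921, 5954 and 5814 CPM in infested blood (log2 fold change 5.54, SE 0.41, edgeR adjusted p = 2.46e-07). The 3 infested libraries lay close together. The general alpha tubulin alphaTub84B, already abundant, went from 2410 and 2374 to 4802, 6358 and 6072 CPM (log2 fold change 1.26, SE 0.19, edgeR adjusted p = 0.000203; adjusted p = 0.0579 with replicates 2 and 3 summed). Of 15 microtubule genes tested 11 rose, 7 without normal replicate 2 and 7 with replicates 2 and 3 summed. The alpha tubulin alphaTub84D was called lower (log2 fold change -0.67, edgeR adjusted p = 0.0262), with an adjusted p of 0.051 to 0.238 without any 1 library. The plus-end protein Eb1 went from 215 and 184 to 984, 1160 and 1181 CPM (log2 fold change 2.47, SE 0.16, edgeR adjusted p = 6.25e-08). The spectraplakin short stop (shot), which ties microtubules to actin, went from 59.7 and 54.6 to 709, 499 and 578 CPM (log2 fold change 3.37, SE 0.39, edgeR adjusted p = 1.86e-05). Near-identical tubulin and actin copies can share reads, and whether the counting used strand is not given in the sources used here, so values of single copies are uncertain.

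In the actin list 19 of 31 genes rose and none fell, with a median log2 change of 0.81. Act5C was at 3859 and 4024 CPM in normal and 11000, 13720 and 13590 CPM in infested blood (log2 fold change 1.70, SE 0.20, edgeR adjusted p = 2.66e-05). The filamin cheerio (cher) was at 143 and 158 CPM in normal and 466, 809 and 850 CPM in infested blood (log2 fold change 2.24, SE 0.32, edgeR adjusted p = 0.000127). The GTPase Rac2, needed in hemocytes for encapsulation, was at 102 and 100 CPM in normal and 262, 472 and 533 CPM in infested blood (log2 fold change 2.06, SE 0.25, edgeR adjusted p = 2.62e-05). Arp3, of the complex that branches actin filaments, went from 181 and 185 to 565, 453 and 435 CPM (log2 fold change 1.40, SE 0.18, edgeR adjusted p = 4.53e-05). Direction in the short-read pair was the same for 9 of the 19 and opposite for 10. Among the 10 were tsr, chic and cib, which lost their calls with replicates 2 and 3 summed. Of these, cib lies outside the naming rule and was chosen after its values were seen. The call of chic was also lost without infested replicate 2 (edgeR adjusted p = 0.112) or 3 (0.0867), and with only the 5 blood libraries at 120 h (0.118). Without normal replicate 2 the list gave 11 rises, and with replicates 2 and 3 summed 5. All 8 subunits of the chaperonin CCT, which folds actin and tubulin, rose, with log2 changes of 0.55 to 1.17 and the same sign in the short reads for all 8. Without normal replicate 2, 3 of them passed, and with replicates 2 and 3 summed 1, CCT5. That subunit was at 250 and 255 CPM in normal and 543, 577 and 582 CPM in infested blood (edgeR adjusted p = 8.58e-05).

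Crystal cell genes moved the other way. Of 12 tested 9 fell and none rose, with a median log2 change of -1.83, and the sum of the list went from 6026 and 6242 to 1022, 1943 and 1967 CPM. Prophenoloxidase 1 (PPO1, FBgn0283437, chromosome 2R, 17887220 to 17889973) was at 1959 and 1970 CPM in normal and 228, 540 and 545 CPM in infested blood (log2 fold change -2.16, SE 0.44, edgeR adjusted p = 0.00252; adjusted p = 0.0746 with replicates 2 and 3 summed). PPO2 was at 2671 and 2647 CPM in normal and 395, 900 and 896 CPM in infested blood (log2 fold change -1.86, SE 0.41, edgeR adjusted p = 0.00495; 0.096 with those replicates summed). Infested replicate 1 was the lowest library for both. The malic enzyme gene Men fell from 355 and 387 to 189, 165 and 166 CPM (log2 fold change -1.10, SE 0.15, edgeR adjusted p = 7.15e-05). CG7860 fell from 204 and 176 to 60.1, 56.5 and 47.3 CPM (log2 fold change -1.80, SE 0.20, edgeR adjusted p = 1.10e-05). The Runx factor lozenge (lz), which specifies crystal cells, was low throughout, at 5.28 and 6.07 CPM in normal and 0, 1.99 and 0 CPM in infested blood, and did not pass (edgeR adjusted p = 0.0971). The list gave 8 falls without infested replicate 1, 5 without normal replicate 3 and 3 with replicates 2 and 3 summed.

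Among 16 plasmatocyte genes 10 fell and none rose, with a median log2 change of -1.29, and 5 fell with replicates 2 and 3 summed. The phagocytic receptor eater was at 694 and 772 CPM in normal and 172, 181 and 191 CPM in infested blood (log2 fold change -2.01, SE 0.27, edgeR adjusted p = 7.54e-05). Glutactin (Glt), a basement membrane protein, was at 1549 and 1600 CPM in normal and 328, 378 and 429 CPM in infested blood (log2 fold change -2.06, SE 0.27, edgeR adjusted p = 6.00e-05). Collagen type IV alpha 1 (Col4a1, FBgn0000299, chromosome 2L, 5029609 to 5037279) was at 1316 and 1260 CPM in normal and 382, 386 and 379 CPM in infested blood (log2 fold change -1.75, SE 0.20, edgeR adjusted p = 2.25e-05). Hemolectin (Hml), a clotting protein and the usual plasmatocyte marker, was at 404 and 423 CPM in normal and 219, 144 and 140 CPM in infested blood (log2 fold change -1.31, SE 0.21, edgeR adjusted p = 0.000473). The short-read pair had the same sign for 5 of the 10 and the opposite for 5. Hml stood at 916 CPM in the normal and 7491 CPM in the infested short-read library. Col4a1 stood at 2540 CPM in the normal and 5363 CPM in the infested short-read library. The direction of these genes differed between the platforms. For eater the short reads gave 1291 CPM in the normal and 777 CPM in the infested short-read library, in the nanopore direction.

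Extracellular matrix followed the plasmatocyte pattern in the nanopore libraries, with 8 of 14 genes lower and 2 higher; with replicates 2 and 3 summed 3 were lower and 1 higher. The plasmatocyte list itself holds matrix genes (Col4a1, vkg, SPARC, Ppn and Glt), so the patterns of these lists are not independent. The integrin ligand tiggrin (Tig) went from 122 and 133 to 41.1, 30.6 and 36.9 CPM (log2 fold change -1.82, SE 0.16, edgeR adjusted p = 1.28e-06). The laminin chain LanA went from 107 and 98.5 to 53.8, 34.5 and 51.9 CPM (log2 fold change -1.16, SE 0.20, edgeR adjusted p = 0.000728). SPARC, which binds collagen IV, was at 2827 and 2644 CPM in normal and 619, 999 and 910 CPM in infested blood (log2 fold change -1.70, SE 0.31, edgeR adjusted p = 0.00128; 0.057 with replicates 2 and 3 summed). The members that rose were the laminin alpha chain wing blister (wb) and the collagen XV/XVIII gene multiplexin (Mp), with log2 changes of 1.88 and 3.48, but without normal replicate 2 their adjusted p was 0.255 and 0.308. The call of wb was also lost without normal replicate 3 (0.0604), infested replicate 2 (0.0682) or infested replicate 3 (0.065). Matrix metalloproteinase 1 (Mmp1), which cleaves matrix, rose from 36.4 and 33.4 to 150, 151 and 137 CPM (log2 fold change 2.05, SE 0.19, edgeR adjusted p = 2.19e-06). Signs in the short reads were the same for 6 of the 10 matrix genes called.

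Receptors and secreted immune proteins split. The scavenger receptor Sr-CIV rose from 68.7 and 42.5 CPM to 211, 412 and 421 CPM (log2 fold change 2.60, SE 0.32, edgeR adjusted p = 3.49e-05). Sr-CIII rose from 12.7 and 13.7 CPM to 35.8, 48.5 and 50.7 CPM (log2 fold change 1.79, SE 0.27, edgeR adjusted p = 0.000252), while eater fell. Among C-type lectins, which bind sugars on foreign surfaces, lectin-24A rose from 29.6 and 28.8 to 136, 124 and 156 CPM (log2 fold change 2.23, SE 0.33, edgeR adjusted p = 0.000202). Another lectin gene, lectin-28C, fell from 562 and 541 to 233, 175 and 194 CPM (log2 fold change -1.46, SE 0.16, edgeR adjusted p = 8.73e-06). The serpin Spn27A, an inhibitor of melanization, fell from 578 and 532 to 226, 153 and 166 CPM (log2 fold change -1.61, SE 0.24, edgeR adjusted p = 0.000193). Fewer humoral genes were measured. Of 15 Bomanin and related symbols 12 had a read at 120 h and 3 were tested, and of 8 Turandot symbols 7 and 3. In normal blood these lists summed to 9.51 and 21.2 CPM and to 6.34 and 7.58 CPM. Members so low there could pass the count filter mainly through libraries where they are higher, so their full counts are not read as a result. Over all genes tested 19.4% were called, and of 10 antimicrobial peptide genes 20%. Rises, at low levels, numbered 2 of these 10, 3 of 3 Bomanin and related genes and 3 of 3 Turandot genes. Without normal replicate 2 these counts were 0, 0 and 1. The stress peptide TotA was at 6.34 and 7.58 CPM in normal and 92.7, 153 and 174 CPM in infested blood (log2 fold change 4.36, SE 0.69, edgeR adjusted p = 0.000351). TotM had no read in normal blood and 67.5, 97.6 and 76.1 CPM in infested blood, at least 68.4-fold higher against 3 reads over the normal group (edgeR adjusted p = 0.00562; 0.0867 without normal replicate 2).

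Pathway genes changed in part. In the list of EGF, FGF and PDGF/VEGF receptor signalling 5 of 12 genes rose and 2 fell, all with the same sign in the short reads; 3 rose and none fell without normal replicate 2. The FGF ligand pyramus (pyr) had no read in normal blood and 17.9, 45.8 and 35.8 CPM in infested blood, at least 28.2-fold higher (edgeR adjusted p = 0.000326). Ras85D, the GTPase downstream of these receptors, went from 96.6 and 103 to 331, 319 and 282 CPM (log2 fold change 1.64, SE 0.19, edgeR adjusted p = 2.25e-05). Of 9 JAK-STAT genes 2 rose and 1 fell. The phosphatase Ptp61F, a negative regulator of the pathway, rose from 23.8 and 15.2 to 72.7, 79 and 86.5 CPM (log2 fold change 1.94, SE 0.29, edgeR adjusted p = 0.000224). The cytokine upd3 was at 2.11 and 4.55 CPM in normal and 11.6, 53.8 and 39.2 CPM in infested blood (log2 fold change 3.58, SE 0.71, edgeR adjusted p = 0.00216; 0.0885 without normal replicate 2 and 0.0727 with replicates 2 and 3 summed). Counts were 1 higher and 1 lower of 12 Toll genes, 4 higher of 13 Imd genes, 2 higher of 10 JNK genes and 2 lower of 10 Notch genes. The shares called were 16.7% (Toll), 30.8% (Imd), 20% (JNK) and 20% (Notch), against 19.4% of all genes tested. The 4 Imd, 2 JNK and 2 Toll genes each lost their call without at least 1 normal library. Neither Notch gene passed without normal replicate 2, and both had the opposite sign in the short reads. Of the JAK-STAT genes 1 rose and none fell without that library.

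**Figure D3:**
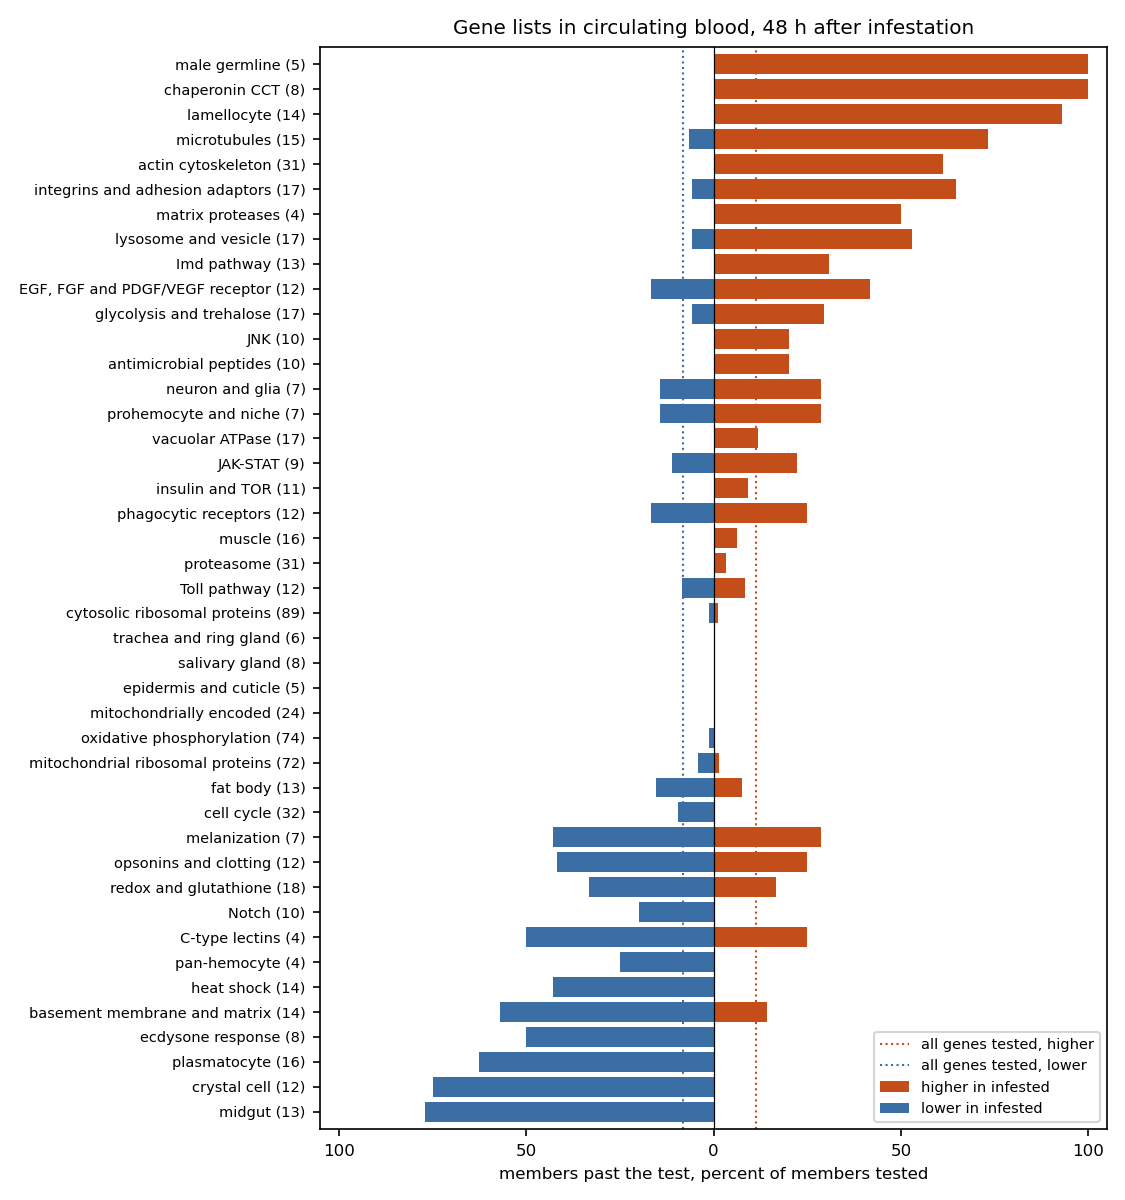
Share of tested members that were called higher (orange, right) or lower (blue, left) in infested blood for each list with at least 4 members tested, with the number tested in parentheses and dotted lines at the shares over all genes tested, 11.3% higher and 8.14% lower. Lamellocyte, CCT, microtubule, integrin, actin and the 5 male germline genes lie on the right, and midgut, crystal cell and plasmatocyte genes on the left.

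Vesicle and lysosome genes rose in 9 of 17 cases and fell in 1, with 4 rises when replicates 2 and 3 were summed. The recycling GTPase Rab11 was at 570 and 525 CPM in normal and 1494, 1579 and 1468 CPM in infested blood (log2 fold change 1.47, SE 0.16, edgeR adjusted p = 1.38e-05). The lysosomal protease CtsL1 was at 459 and 432 CPM in normal and 1110, 1168 and 1114 CPM in infested blood (log2 fold change 1.34, SE 0.16, edgeR adjusted p = 2.72e-05). The tetraspanin Tsp42Ed was at 122 and 129 CPM in normal and 525, 375 and 368 CPM in infested blood (log2 fold change 1.76, SE 0.21, edgeR adjusted p = 3.04e-05). In sugar metabolism 5 of 17 genes rose and 1 fell, while over all genes tested 11.3% were called higher and 8.14% lower. The glycolytic enzyme gene Gapdh2 went from 284 and 253 to 515, 798 and 811 CPM (log2 fold change 1.40, SE 0.20, edgeR adjusted p = 0.000166). Of these genes 3 rose without normal replicate 2 and 2 without normal replicate 3. Catalase (Cat), which breaks down hydrogen peroxide, fell from 297 and 302 to 112, 102 and 95.7 CPM (log2 fold change -1.54, SE 0.17, edgeR adjusted p = 1.08e-05). The glutathione transferase GstE6 rose from 61.2 and 31.8 to 305, 300 and 299 CPM (log2 fold change 2.62, SE 0.24, edgeR adjusted p = 1.89e-06). In the redox list as a whole 3 rose and 6 fell of 18, and 1 rose and 3 fell without normal replicate 2.

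Of 14 heat shock genes 6 were lower, among them the small heat shock genes Hsp23 and Hsp27, and of 8 ecdysone response genes 4. Over all genes tested 8.14% were lower. Hsp23 was at 1462 and 1240 CPM in normal and 78, 179 and 173 CPM in infested blood (log2 fold change -3.23, SE 0.30, edgeR adjusted p = 2.32e-06). Hsp27 was at 719 and 688 CPM in normal and 83.3, 163 and 173 CPM in infested blood (log2 fold change -2.33, SE 0.32, edgeR adjusted p = 8.66e-05). For Hsp23 the short reads gave 3029 CPM in the normal and 81.2 CPM in the infested short-read library. Both are ATP-independent chaperones whose genes also respond to the moulting hormone ecdysone. The heat shock list gave 2 falls without normal replicate 2, and the Hsp70 copies among the 6 are near-identical and uncertain. The short reads had the same sign for 4 of the 6. Broad (br), an early ecdysone-induced transcription factor, went from 96.6 and 91 to 19, 15.9 and 23.1 CPM (log2 fold change -2.30, SE 0.32, edgeR adjusted p = 0.00012). The ecdysone receptor EcR was at 45.4 and 33.4 CPM in normal and 15.8, 11.3 and 11.5 CPM in infested blood (log2 fold change -1.65, SE 0.36, edgeR adjusted p = 0.00493; 0.112 without normal replicate 2). None of the ecdysone response genes rose, the short reads had the same sign for all 4 that fell, and 1 fell without normal replicate 2. Salivary gland and fat body genes, given above, varied between the same libraries, and their part in this result was not tested.

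Midgut genes fell in the nanopore libraries, and they were nearly absent from the short reads. Of 13 tested 10 fell and none rose (2 fell with replicates 2 and 3 summed), and the list summed to 868 and 794 CPM in normal and 90.6, 41.2 and 32.3 CPM in infested blood. The digestive protease yip7 was at 116 and 124 CPM in normal and 4.22, 0 and 0 CPM in infested blood (log2 fold change -6.49, SE 1.11, edgeR adjusted p = 0.000687). Jon25Bi, of the same family, was at 91.3 and 81.9 CPM in normal and 4.22, 0.664 and 0 CPM in infested blood (log2 fold change -5.74, SE 1.04, edgeR adjusted p = 0.00116). In the short reads yip7 was at 0.123 CPM in the normal and 1.7 CPM in the infested short-read library, and 9 of the 10 genes called lower had the opposite sign there. The part of gut material in the other differences was not tested.

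Of the 10 largest fitted rises among named genes that reached 20 CPM and whose groups did not overlap, 9 had no read in normal blood. Ranking by fitted fold change favours such genes, and they passed the count filter only through other libraries. Their number is therefore not read as a result. Ocho was at 89.6, 60.4 and 45 CPM in infested replicates 1, 2 and 3, at least 55.3-fold higher (edgeR adjusted p = 9.85e-06). The myosin Myo28B1 was at 39, 52.5 and 61.1 CPM, at least 43.3-fold higher (edgeR adjusted p = 7.59e-06). Epac, an exchange factor that responds to cyclic AMP, was at 21.1, 30.6 and 26.5 CPM in infested blood (at least 22.2-fold higher, edgeR adjusted p = 0.000358). Npc2b, of a family that binds sterols, was at 13.7, 29.2 and 38 CPM (at least 23-fold higher, edgeR adjusted p = 0.00147). Whamy, an activator of actin branching, had 0 and 1.52 CPM in normal and 94.8, 101 and 115 CPM in infested blood (log2 fold change 7.66, SE 0.63, edgeR adjusted p = 6.12e-07). CG14610, with no name beyond its number, reached 2712, 7940 and 8222 CPM from 16.9 and 19.7 CPM (log2 fold change 8.44, SE 0.55, edgeR adjusted p = 6.25e-08). Its antisense gene asRNA:CR42738 was also called (edgeR adjusted p = 1.66e-06). Whether the counting used strand is not given, so the levels of both genes are uncertain. The adenosine receptor AdoR, with no read in either normal library, was at 23.2, 30.6 and 26.5 CPM in infested blood, at least 22.8-fold higher (edgeR adjusted p = 0.000165). The short reads gave 8.49 CPM in the normal and 131 CPM in the infested short-read library. Among the falls, the Hox gene Ubx was at 88.2 and 94 CPM in normal blood and had no read in infested blood (at least 101-fold lower, edgeR adjusted p = 0.00309; 0.254 by DESeq2). The short reads gave 0.206 CPM in the normal and 0.881 CPM in the infested short-read library.

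The most abundant gene that fell was regucalcin, a calcium-binding protein, at 47780 and 44140 CPM in normal and 13940, 12660 and 11650 CPM in infested blood (log2 fold change -1.85, SE 0.36, edgeR adjusted p = 0.00188; 0.101 with replicates 2 and 3 summed). The fatty acid binding protein gene fabp went from 2941 and 2644 to 437, 490 and 436 CPM (log2 fold change -2.62, SE 0.20, edgeR adjusted p = 3.32e-07). CG9119 went from 424 and 411 to 82.2, 78.4 and 85.3 CPM (log2 fold change -2.35, SE 0.29, edgeR adjusted p = 3.20e-05). Of 122 non-coding RNA genes tested 17 were higher and 13 lower (24.6% called, against 19.4% of all genes tested). The gene lncRNA:CR44948 went from 32.7 and 56.1 to 5026, 4845 and 6920 CPM (log2 fold change 7.03, SE 0.46, edgeR adjusted p = 6.25e-08). The gene lncRNA:CR44316 went from 41.2 and 66.7 to 1885, 1977 and 2825 CPM (log2 fold change 5.41, SE 0.44, edgeR adjusted p = 5.11e-07).

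The infestation effect was compared with that in blood at 96 h, 24 h after infestation, from 2 normal and 3 infested libraries of that stage. Lamellocyte genes summed to 392 and 390 CPM in normal and 6927, 6687 and 6666 CPM in infested blood at 96 h, below the sums at 120 h given above. The difference of the effects passed the test for 137 of 7076 genes (1.94%), 59 (0.834%) with a positive signed difference, 120 h minus 96 h, and 78 (1.1%) with a negative one. A negative difference covers both a deeper fall at 120 h and a weaker or reversed rise. With replicates 2 and 3 summed 0 genes passed edgeR, while 619 were under an unadjusted p of 0.05. On the libraries as they stand DESeq2 called 175 and limma voom 331. Without normal replicate 2 of 120 h 23 genes passed, and without normal replicate 3 of 96 h 26. The integrin gene ItgaPS5 was at 62.4 and 71.2 CPM in normal and 217, 144 and 164 CPM in infested blood at 96 h (difference 2.18, SE 0.33, edgeR adjusted p = 0.00424; 0.0512 without normal replicate 2 of 120 h). CAP was at 23.4 and 19.8 CPM in normal and 107, 53.9 and 78.8 CPM in infested blood at 96 h (difference 2.61, SE 0.42, edgeR adjusted p = 0.00609; 0.0541 without that library). The microtubule protein Eb1 was at 162 and 183 CPM in normal and 336, 369 and 381 CPM in infested blood at 96 h (difference 1.40, SE 0.21, edgeR adjusted p = 0.00424; 0.0551 without normal replicate 3 of 96 h).

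For yip7 and lncRNA:CR40469 the effects at the 2 stages had opposite signs, and for fabp the effect at 120 h lay further below 0. At 96 h yip7 was at 29.2 and 33 CPM in normal and 358, 346 and 330 CPM in infested blood, higher in every infested library, where at 120 h it was lower in every one (difference -9.95, SE 1.40, edgeR adjusted p = 0.00221). The midgut list summed to 357 and 328 CPM in normal and 4066, 2968 and 2796 CPM in infested blood at that stage. For fabp the levels at 96 h were 474 and 446 CPM in normal and 248, 373 and 378 CPM in infested blood (difference -2.15, SE 0.29, edgeR adjusted p = 0.00198). The long non-coding gene lncRNA:CR40469 was at 959 and 1251 CPM in normal and 615, 355 and 571 CPM in infested blood at 96 h. At 120 h it was at 30.1 and 27.3 CPM in normal and 476, 266 and 368 CPM in infested blood (difference 4.78, SE 0.50, edgeR adjusted p = 0.000296). For yip7, fabp and lncRNA:CR40469 the call held without any 1 library and was lost with replicates 2 and 3 summed, at adjusted p = 0.268, 0.288 and 0.0593.

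**Figure D4:**
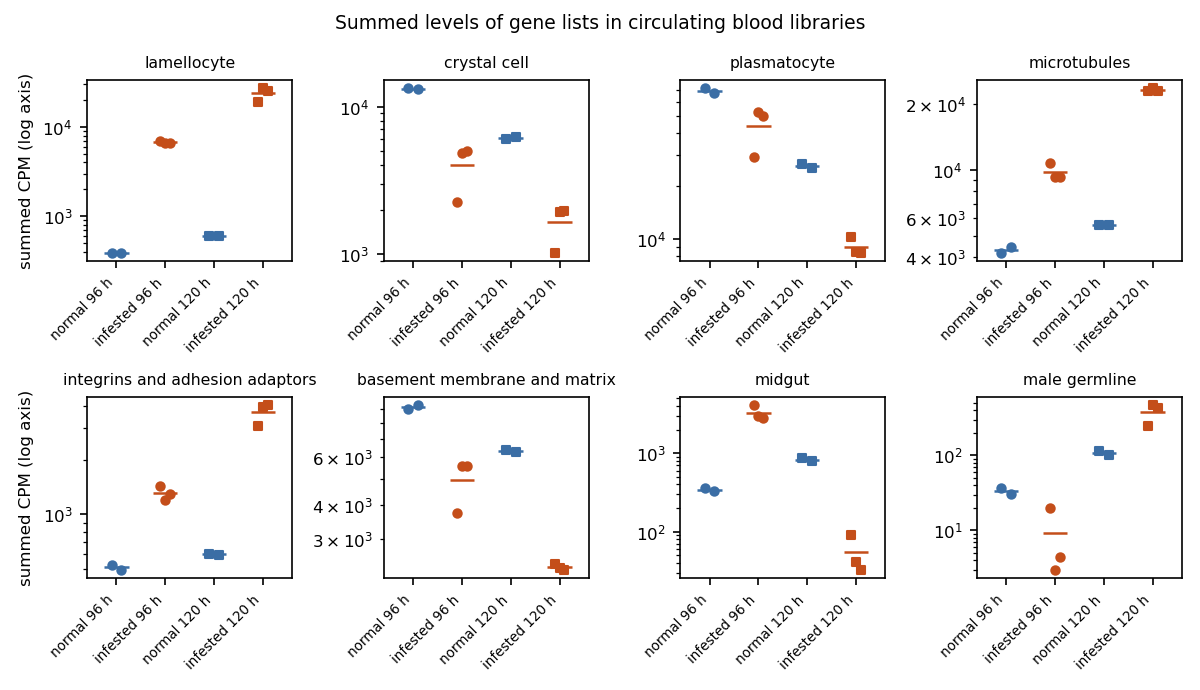
Summed CPM of 8 gene lists in each blood library (log axes that differ between panels), normal in blue and infested in orange, with circles for 96 h, squares for 120 h and a line at each mean. Lamellocyte, microtubule and integrin genes are higher in infested blood at both stages, while midgut genes are higher in infested blood at 96 h and lower at 120 h.

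Isoform usage was tested on 1609 genes with at least 2 transcripts, of which 27 passed (1.68%). In Targ2 the leading transcript made up 86.3 and 92.3% of the gene's reads in normal replicates 2 and 3 and 39.1, 31.8 and 26.9% in infested replicates 1, 2 and 3. Another transcript went from 8.41 and 0% to 49.3, 54.7 and 57.6% (edgeR adjusted p = 0.000443; 0.0674 with replicates 2 and 3 summed). The short reads moved in the same direction, from 56.8 to 27.0% for the first and from 31.1 to 52.0% for the second. In CG13551 the leading transcript went from 80.2 and 75.3% to 54.9, 56.3 and 53.7% (edgeR adjusted p = 0.000443; 0.0647 with replicates 2 and 3 summed and 1 by Simes' method over its transcripts), and from 96.3 to 92.0% in the short reads. RapGAP1, a regulator of the GTPase Rap1, used 1 transcript for all of its 13.4 and 7.2 estimated reads in normal blood, and another for 66.6, 70.4 and 70.7% of its reads in infested blood (edgeR adjusted p = 0.0115; 0.182 without normal replicate 2, 0.0892 without normal replicate 3, 0.108 with replicates 2 and 3 summed and 0.334 by Simes' method). In the short reads the first transcript went from 22.1 to 2.35% and the second, already at 51.0% in normal blood, to 89.2%. Other isoform genes picked by the naming rule were mixed. The leading transcript of ics fell from 100 and 100% to 14.44, 14.65 and 8.448%, but went from 1.16 to 2.3% in the short reads. That of rogdi fell from 86.67 and 84% to 58.33, 49.28 and 54.1%, against 76.98 to 85.72%. Those of CenB1A, Irk1, cher, CAP and Uch moved in the nanopore direction, for Uch only from 0.62 to 3.55%. The calls of all genes in this mixed set were lost without normal replicate 2. Several rested on few estimated reads in normal replicates 2 and 3: 33.7 and 6.33 for ics and 15.3 and 2.34 for Irk1. CenB1A had 13 and 8 there, and CAP 7.66 and 4. Without infested replicate 1 the edgeR adjusted p was 0.0521 for Irk1, 0.0636 for cher and 0.0727 for CAP.

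The single short-read pair was used as a check of direction only. Of the 1375 genes called, 1135 reached 20 CPM in at least 1 of its libraries, and 780 of these (68.7%, Wilson 95% interval 66.0 to 71.4%, counting error only) had the same sign as in the nanopore libraries. With these genes split into 4 groups of equal number by length, the share was 55.3% in the shortest group and 81.3% in the longest. It was 81.9% among genes with a log2 change of at least 3. Over all tested genes with at least 20 CPM, the ratio was above 1 for 42.9%. The sign counts given for single gene lists took all called members, with no minimum short-read level.

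**Figure D5:**
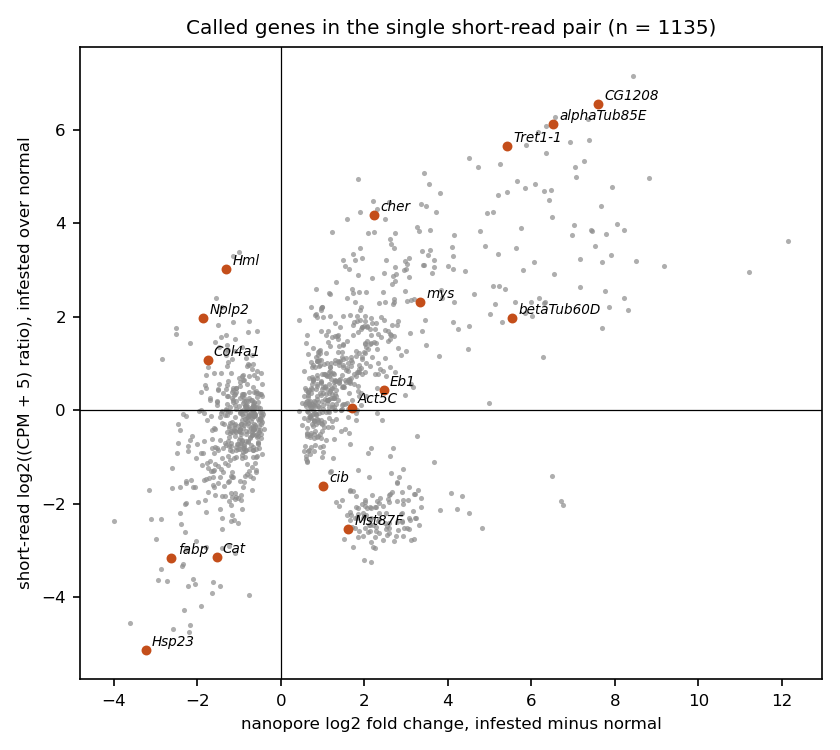
Log2 ratio of infested to normal CPM (5 added to each) in the single short-read pair against the nanopore log2 fold change for 1135 called genes. Lamellocyte genes lie in the upper right, while actin cytoskeleton genes lie on both sides of 0 on the short-read axis. Hml, Col4a1 and Nplp2 lie in the upper left. A separate group that holds Mst87F lies near 2 on the nanopore axis and below -1 on the short-read axis.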

How the data were processed

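Per the file headers, the authors deposited read counts per gene and estimated (expected) counts per transcript for each nanopore library, and expected counts, TPM and the share of each transcript in its gene in percent (IsoPct) for the short-read libraries. The submitters' processing notes name minimap2 2.17-r941, StringTie 2.1.3, STAR 2.5.3a, RSEM 1.3.1 and FastQC 0.11.8, with no role given. Neither the genome build nor the strand setting is stated in the labels or headers. Positions come from the BDGP6.54 annotation, matched by gene ID.

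Gene counts were tested with edgeR 4.0.16 (R 4.3.3) by the quasi-likelihood test with TMM scaling and Benjamini-Hochberg adjustment. The fit held the 16 nanopore libraries of blood and lymph gland made with the same kit. They formed 6 groups with 10 residual degrees of freedom (common dispersion 0.0508). A lymph gland library at 120 h made with another kit was left out. The filter filterByExpr (minimum count 10, minimum total 15) kept 7076 of 13721 genes. Reads in lines that name no gene, 0.53 to 0.678% ambiguous and 0.605 to 0.788% with no feature in the 5 libraries, were left out, as were the 22.4 to 25.4% ambiguous between transcripts. The gene-level test of diffSpliceDGE (edgeR) was run for isoform usage on expected counts rounded to whole numbers. The short-read log2 ratio was taken on CPM with 5 added. The tests across genes were first run on simulated data with known changes. Infestation means 48 h before collection at 120 h and 24 h before collection at 96 h.

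The 46 gene lists (959 symbols, of which 2 were not found) and the samples studied were chosen with earlier results of these data known. Named genes are the 10 largest rises and falls with at least 20 CPM and groups that do not overlap, the 5 numbered genes with the smallest p in each direction, the 10 most abundant called genes of each direction, the 4 smallest p in each list, a set of lineage genes, 6 non-coding genes, the 8 largest differences from 96 h of each sign and 10 isoform genes. Alternatives were other scalings, filters and thresholds, DESeq2 1.42.0, limma 3.58.1 voom, the replicate block, leaving out each library and summing replicates 2 and 3.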

Additional observations from a re-analysis of the deposited data

Results flagged for a closer look

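The infestation effect differed between 120 h and 96 h by the edgeR interaction test for 137 genes. The values that follow are differences of log2 effects, 120 h minus 96 h, for the 33 of these genes picked by the naming rule. Of the 33 differences 7 passed without any 1 library (yip7, Jon25Bi, Jon65Aiii, Jon65Aiv, CG31075, fabp and lncRNA:CR40469), and none passed with replicates 2 and 3 summed.

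Digestive protease genes of the midgut had lower effects at 120 h: the difference was -9.95 for yip7, -9.46 for Jon25Bi, -9.05 for Phae1, -7.81 for Jon65Aiv, -7.21 for Jon65Aiii, -6.84 for deltaTry, -6.72 for Jon25Biii and -6.35 for Jon99Cii, and that of the lysozyme gene LysB was -7.73. The larval serum proteins Lsp1alpha and Lsp2, which fat body makes, had differences of -10.8 and -4.11.

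Further negative differences were -2.68 for the small heat shock gene Hsp23, -2.55 for Ama, -2.15 for fabp, -1.95 for CG31075, -1.50 for the glutathione transferase GstE1, -1.45 for the peptidase gene Ance, -1.28 for catalase and -1.27 for lectin-28C. At 120 h Hsp23, Cat and lectin-28C were lower in every infested than in every normal library.

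Adhesion and cytoskeletal genes had larger rises at 120 h, with differences of 1.23 for the beta integrin mys, 2.18 for ItgaPS5, 2.61 for CAP and 1.40 for Eb1. The scavenger receptor Sr-CIV had a difference of 1.83, the C-type lectin family gene rgn one of 3.10 and the troponin C gene TpnC73F one of 3.18.

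Positive differences were also found for Mst84Da (7.98), Mst87F (5.01), Dpy-30L2 (6.14) and ocn (4.55), and for the non-coding genes lncRNA:CR40469 (4.78), BIGFLY-novelRNA-57 (3.21) and the ribosomal RNA pseudogene 28SrRNA-Psi:CR41609 (2.83). Mst84Da and Mst87F are sperm protein genes and stood among those whose direction at 120 h was opposite in the short reads.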

How the results depend on the processing

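The 1375 calls (799 higher, 576 lower) were 704 (450 and 254) at an adjusted p under 0.01, 673 (465 and 208) against a minimum fold of 1.5 and 435 (315 and 120) with replicates 2 and 3 summed, of which 433 were among the 1375. Fewer were lower with library totals (312) and by DESeq2 (375). Leaving out 1 library gave 616 to 1289 calls, 375 to 844 higher and 241 to 445 lower; the lowest was without normal replicate 2, and 735 passed without normal replicate 3, where the lone normal library is assumed to vary like the other groups.

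The 137 differences from 96 h (59 positive, 78 negative) were 33 (15 and 18) at 0.01, 58 (24 and 34) against the minimum fold, 331 (200 and 131) by limma voom, 488 (209 and 279) with no filter and 0 (0 and 0) with replicates summed. Leaving out 1 library gave 23 to 246, with 10 to 111 positive and 11 to 135 negative. The 27 isoform calls were 11 by Simes' method and 15 with replicates summed, of which 5 were among the 27, and 22 to 31 without 1 library.

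With the replicate block in the 10 blood libraries, 1692 genes passed at 120 h (1352 without it), 351 differed from 96 h (143 positive, 208 negative; 150 without it) and 44 isoform genes passed (24 without it). The groups shared only replicate numbers 2 and 3, and deviations of same-numbered libraries correlated within 0.0593 of 0, so the number was not read as a pairing.

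The list medians that changed sign were those of mitochondrial ribosomal proteins (0.0538) and oxidative phosphorylation (0.0545) with library totals, and of muscle genes with relative log expression (0.0263) and library totals (0.234). The share with the same direction in the short reads was 77.1% at 100 CPM or more, and the cause of these changes was not tested. Of the 3934 other alternative values, for single genes and lists, 3243 kept direction and side of the threshold, 663 lost their call and 24 moved. The planned promoter motif comparison was not run, since no sequence was used here. The limit of 3 reads was 1.44 CPM in normal replicate 2 and 4.15 CPM in normal replicate 3, and the fold bounds rest on 3 reads over both, which is 1.18 CPM; lower levels were not detectable.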

Other observations

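Other immune genes of hemocytes moved in both directions. Over all genes tested 11.3% were higher and 8.14% lower. Of 12 opsonin and clotting genes 3 rose and 5 fell: the thioester protein Tep2, which binds microbes for uptake, went from 4.75 and 0 CPM in normal replicates 2 and 3 to 56.9, 31.2 and 19.6 CPM in infested replicates 1, 2 and 3 (log2 fold change 3.39, SE 0.75, edgeR adjusted p = 0.00498), while the Nimrod proteins NimB1 and NimB4 fell with log2 changes of -1.42 and -1.50. Of 12 phagocytic receptor genes 3 rose and 2 fell, of 7 melanization genes 2 rose and 3 fell, of 4 C-type lectin genes 1 rose and 2 fell and of 4 matrix protease genes 2 rose. Without normal replicate 2 these counts were 2 and 5, 2 and 1, 1 and 3, 1 and 2, and 1. Of 7 prohemocyte and niche genes 2 rose and 1 fell, but 1 rose and none fell without normal replicate 2, normal replicate 3 or infested replicate 1. The receptor gene mthl2 was at 256 and 261 CPM in normal and 565, 997 and 1003 CPM in infested blood (log2 fold change 1.73, SE 0.23, edgeR adjusted p = 8.78e-05). Of 4 pan-hemocyte genes 1, the growth factor receptor Pvr, was called lower (log2 fold change -0.61; adjusted p = 0.183 without normal replicate 2). Tep2 and NimB1 were chosen after their values were seen.

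Of 89 cytosolic ribosomal protein genes 1 rose and 1 fell at the threshold. Their median log2 change was -0.53, or -0.17 without infested replicate 1, and for 86 of the 89 the ranges of the groups did not overlap, against 49.9% of all genes. Of 72 mitochondrial ribosomal genes 1 rose and 3 fell, of 74 oxidative phosphorylation genes 1 fell and of 24 mitochondrially encoded genes none passed. Over all genes tested 19.4% passed. Of 31 proteasome genes 1 rose, of 17 vacuolar ATPase genes 2, of 11 insulin and TOR genes 1 and of 16 muscle genes 1. Of 32 cell cycle genes 3 fell, and 1 without normal replicate 2. None of the proteasome, vacuolar ATPase and insulin and TOR genes passed without that library. Among markers of other tissues, 1 of 13 fat body genes rose and 2 fell, 2 of 7 neuron and glia genes rose and 1 fell, and none passed of 8 salivary gland, 6 trachea and ring gland, 5 epidermis and cuticle and 2 heart and pericardial genes. Without infested replicate 1, 7 fat body and 6 salivary gland genes were lower, and without either normal library no neuron and glia gene passed.

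A group of genes went in opposite directions on the 2 platforms. It was found after the values were seen and holds the 134 genes called higher in the nanopore libraries that were at least 2-fold lower in the infested short-read library, with no test. Their summed level was 3430 and 3240 CPM in normal and 7880, 9190 and 9180 CPM in infested nanopore libraries at 120 h, and 22300 CPM in normal and 4940 CPM in infested short reads. All 5 tested male germline genes were in it, a list that summed to 113 and 100 CPM in normal and 244, 464 and 429 CPM in infested nanopore blood, and none of the 5 passed without normal replicate 2, normal replicate 3, infested replicate 2 or infested replicate 3. Of the 134 genes 88 carried only an annotation number. For the sperm protein gene Mst87F the nanopore levels were 29 and 40.9 and 53.8, 126 and 132 CPM (log2 fold change 1.61; adjusted p = 0.252 without normal replicate 2), and the short reads gave 121 CPM in the normal and 16.5 CPM in the infested short-read library. The opposite case, lower in nanopore and at least 2-fold higher in short reads, held for 31 genes. The part of gonad material in these differences was not tested.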
